A study of Mus musculus and Homo sapiens with 9 samples.

Results

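The MYC, MAX and MXD network was followed as 10 genes in 2 count tables: MYC, MYCN, MAX, MXD1, MXI1, MXD3, MXD4, MNT, MGA and MLX, taken by symbol from the 64252 rows of the human table and, in mouse case, from the 43432 rows of the mouse table. All 10 were found in both tables, and all 10 passed the filter on low counts in both.

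MYC and MYCN are transcription factors that pair with MAX, bind the E-box CACGTG and activate genes of ribosome production, nucleotide synthesis and cell growth. MXD1, MXI1, MXD3, MXD4, MNT and MGA also pair with MAX, but repress: the MXD proteins and MNT bring the SIN3-HDAC complex, and MGA belongs to a Polycomb complex named PRC1.6. MLX is a second hub, which pairs with the glucose-sensing factors MondoA (gene MLXIP) and ChREBP (gene MLXIPL), and also with MNT, MXD1 and MXD4. MYC is a main driver of T cell acute lymphoblastic leukemia (T-ALL), in which NOTCH1 activates it, and it is also induced when resting T cells divide.

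RNA-seq was performed on J.gamma1 cells, a T-ALL line derived from Jurkat that lacks phospholipase C gamma 1, and on splenic CD3+ T cells of mice. J.gamma1 cells carried lentiviral short hairpin RNA, either the control sh-NC (2 libraries) or sh-IRF2BP2 (2 libraries); hairpins were designed against 2 regions of IRF2BP2, and the labels do not say which was sequenced. Mouse T cells were sorted magnetically from knockout mice, Vav-iCre+/-;Irf2bp2fl/fl (2 libraries), and from controls (3 libraries), which the labels call wild type and the paper Vav-iCre-/-;Irf2bp2fl/fl. Vav-iCre acts throughout the blood lineage, so the other blood cells of these mice lost Irf2bp2 as well, and mice of these genotypes were killed at 6 weeks of age for flow cytometry, whereas the labels give no age for the mice sequenced. Nothing states that the replicates came from separate cultures or that each mouse library was 1 animal, so p-values measure the spread between these libraries, which may be technical.

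Library totals lay between 16668577 and 37177523 counts, with mouse control replicate 3 the lowest. Levels are given as CPM, counts scaled to the TMM-corrected size of each library, and 3 counts corresponded to 0.0783 to 0.188 CPM. The targeted gene followed the labels. IRF2BP2 was at 204 and 199 CPM with sh-NC and at 79.0 and 93.8 CPM with sh-IRF2BP2. Irf2bp2 was at 112, 127 and 120 CPM in the controls and had 0 counts in both knockout libraries, at least 1469-fold lower with 3 counts per library as the floor. All 10 T cell markers checked (such as CD3E, LCK and ZAP70) were detected in both tables, although in J.gamma1 cells CD2, CD4 and CD8A lay between 1.86 and 6.40 CPM on average.

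The E-box links the members to each other, since a MAX dimer can bind the start of another member's gene. The window from 250 bases before to 50 bases after the start of transcription was searched for CACGTG, which reads the same on both strands. Human windows were read from hg38 at the canonical GENCODE 44 start of each gene, and mouse windows came from RefSeq (GRCm38.p6), which matched 9 of the 10 members (not Myc). Among the members whose windows are described here, MXD4, MNT and MLX held the word in both species. It was present in 8.75% of 20046 human and in 7.84% of 21262 mouse windows of this length. A match describes the sequence, and binding was not measured.

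The 30 bases around each match are shown for the 3 genes MXD4, MNT and MLX, because they place the same word near the same genes in both species. Capitals mark the E-box, and each sequence is on the strand of its gene.
Human MXD4, chr4:2262330-2262359, minus strand: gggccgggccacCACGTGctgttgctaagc
Mouse Mxd4, chr5:34187912-34187941, minus strand: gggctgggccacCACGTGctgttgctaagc
Human MNT, chr17:2401236-2401265, minus strand: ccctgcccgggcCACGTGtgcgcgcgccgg
Mouse Mnt, chr11:74830789-74830818, plus strand: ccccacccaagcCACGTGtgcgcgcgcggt
Human MLX, chr17:42567038-42567067, plus strand: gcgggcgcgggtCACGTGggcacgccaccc
Mouse Mlx, chr11:101087238-101087267, plus strand: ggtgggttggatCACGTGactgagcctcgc

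The word began 238 bases before the start of human MXD4 and 219 bases before that of mouse Mxd4, and 23 of the 24 bases beside it were identical between the species. Fewer of these bases were identical for MNT (18 of 24) and MLX (11 of 24). In human MNT and MLX the word began 193 and 50 bases before the start, and in mouse Mnt and Mlx 123 and 40 bases before it.

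Knockdown of IRF2BP2 in J.gamma1 cells was accompanied by a lower level of MYC and a higher level of MXD4. These were the members called, for which edgeR had to give an adjusted p under 0.05 together with a log2 difference of 0.5 or more. So 1 of 10 members was called lower, where 5.01% of all 15819 genes tested were, and 1 of 10 higher, where 5.46% were. The median log2 fold change of the members was -0.14, beside 0.0067 for all genes tested.

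MYC, on chromosome 8 and the most abundant member per length of exon, had 7264 and 6627 counts with sh-NC and 4892 and 3765 with sh-IRF2BP2. In CPM these were 281 and 214 against 168 and 128, so both knockdown libraries lay below both control libraries. The mean was 247 ± 47.3 CPM with sh-NC and 148 ± 28.5 CPM after knockdown (SD, n = 2), which gave a log2 fold change of -0.74 (SE 0.182). Its p, adjusted over all genes by the Benjamini-Hochberg method, was 0.0397 in the quasi-likelihood test of edgeR. The call was lost without sh-IRF2BP2 replicate 2 (log2 fold change -0.56, edgeR adjusted p = 0.170) and when genes with 1 count in any library were kept (-0.77, edgeR adjusted p = 0.102), where 27082 genes were tested.

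MYCN, the form of MYC best known from neuroblastoma, showed the opposite order. It had 14.9 and 14.5 CPM with sh-NC and 24.3 and 20.1 CPM with sh-IRF2BP2, without overlap. Its log2 fold change of 0.60 (SE 0.167) did not pass the test (edgeR adjusted p = 0.0586), but passed with DESeq2 (adjusted p = 0.0315). The antisense transcript MYCNOS, which shares 3.56% of the exon bases of MYCN, had 10 and 32 counts with sh-NC and 6 and 3 with sh-IRF2BP2, against 385 to 707 counts of MYCN.
Per kilobase of exon, MYCN made up 10.5% and 13.1% of the sum of MYC and MYCN with sh-NC, and 24.3% and 25.9% with sh-IRF2BP2. The sum itself was 51.3 and 40.2 CPM per kb with sh-NC and 36.3 and 28.2 CPM per kb with sh-IRF2BP2. The higher MYCN level was thus smaller in size than the lower MYC level, and the groups did not overlap in the sum.

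MAX, the shared partner, had 116 and 115 CPM with sh-NC and 102 and 103 CPM with sh-IRF2BP2. The groups did not overlap, but the log2 fold change was only -0.17 (SE 0.111, edgeR adjusted p = 0.361). MAX overlaps FNTB, the beta subunit of farnesyltransferase, in 13.1% of its exon bases on the other strand. FNTB had 733 and 895 counts with sh-NC and 1129 and 1160 counts with sh-IRF2BP2. The library kit does not mark strand, so strand marking cannot assign reads from shared bases to 1 of the genes. How the counting treated such reads is not given in the sources used here.

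**Figure D1:**
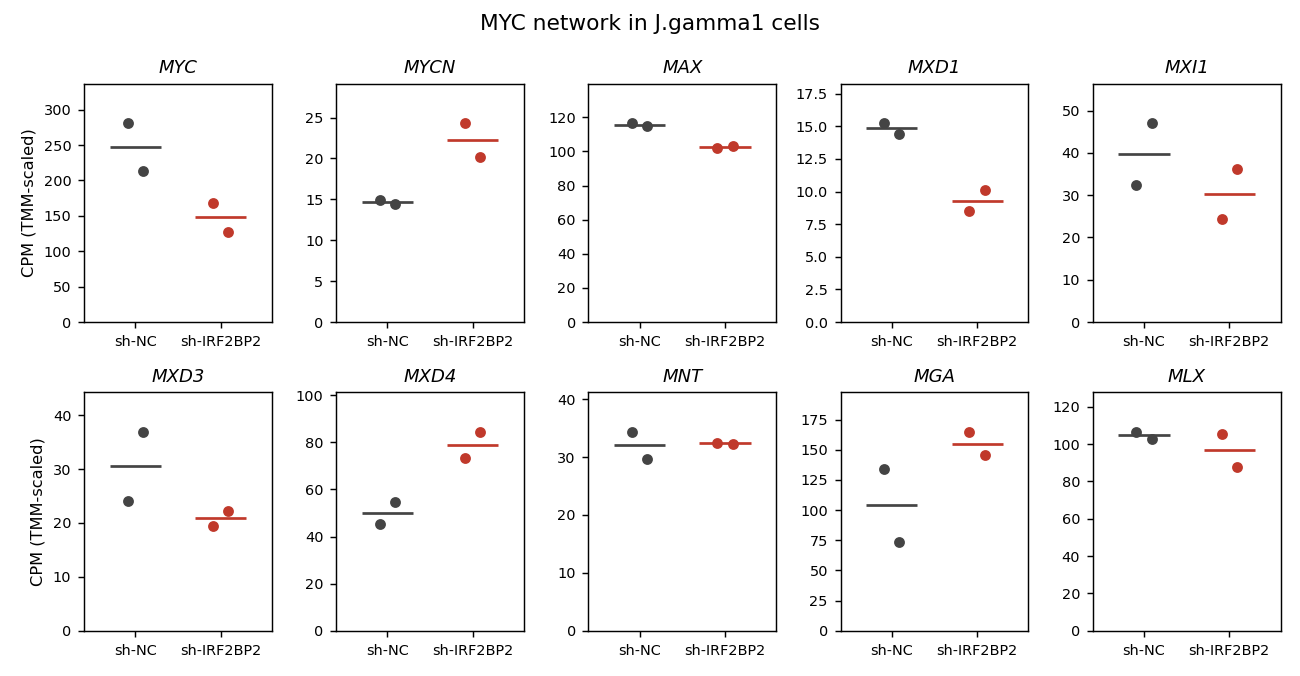
Level of each of the 10 members in J.gamma1 cells, in CPM on a linear axis from 0 that differs between panels. Points are libraries (2 per group), horizontal lines the group means; MYC lies lower and MXD4 higher in both sh-IRF2BP2 libraries, whereas the groups overlap for MXI1, MNT and MLX.

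Among the repressive partners, MXD4 was the member called. MXD4 (ENSG00000123933, chr4:2247432-2262109, minus strand, hg38) encodes a MAX partner found in cells that leave the cycle. It had 1178 and 1697 counts with sh-NC and 2135 and 2484 with sh-IRF2BP2, or 45.5 and 54.7 against 73.3 and 84.3 CPM. All knockdown values were above all control values, with a log2 fold change of 0.65 (SE 0.140, edgeR adjusted p = 0.0256). As for MYC, the call was lost without sh-IRF2BP2 replicate 2 (0.55, edgeR adjusted p = 0.121) and with genes of 1 count in any library kept (0.62, edgeR adjusted p = 0.0889).

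MXD1, which is induced when blood cells differentiate, went the other way, with 15.2 and 14.4 CPM with sh-NC and 8.48 and 10.1 CPM with sh-IRF2BP2. Its log2 fold change of -0.67 (SE 0.190) missed the threshold by edgeR (adjusted p = 0.0610) and passed it by DESeq2 (adjusted p = 0.0257). MXD3, the form tied to S phase, had 24.1 and 36.8 against 19.5 and 22.3 CPM, a log2 fold change of -0.55 (SE 0.210, edgeR adjusted p = 0.139). The groups did not overlap for either gene, but sh-NC replicate 2 stood far above the other 3 libraries for MXD3. Without sh-NC replicate 1 the MXD3 difference was -0.82 (edgeR adjusted p = 0.00272), and the range over all left-out libraries was -0.82 to -0.21. MXD3 also shares 24.2% of its exon bases with PRELID1 on the other strand and 19.5% with RAB24 on its own strand, and PRELID1 had 3027 to 3991 counts per library, where MXD3 had 568 to 1143.

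MXI1, also named MXD2, had 32.4 and 47.0 CPM with sh-NC and 24.4 and 36.3 CPM with sh-IRF2BP2, and the groups overlapped (log2 fold change -0.39, SE 0.233, edgeR adjusted p = 0.324). Its value depended on which library was left out, in either group, and ranged from -0.70 to -0.09. For sh-IRF2BP2 it was -0.16 with replicate 1 dropped and -0.70 with replicate 2 dropped. For sh-NC the values were -0.63 and -0.09 in the same order. MNT, the most widely expressed repressor of the network, had 34.3 and 29.7 against 32.5 and 32.3 CPM. That was a log2 fold change of 0.02 (SE 0.137, edgeR adjusted p = 0.947), whose sign changed between settings.

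MGA, the largest protein of the network and the scaffold of PRC1.6, had 134 and 73.6 CPM with sh-NC and 165 and 145 CPM with sh-IRF2BP2. Both knockdown libraries lay higher, but the control libraries lay far apart, and the log2 fold change of 0.58 (SE 0.248) did not pass (edgeR adjusted p = 0.178). It was 1.07 without sh-NC replicate 1 (edgeR adjusted p = 8.3e-05) and 0.21 without sh-NC replicate 2. MLX had 106 and 103 against 105 and 87.8 CPM, and the groups overlapped (log2 fold change -0.12, SE 0.129, edgeR adjusted p = 0.613). In all, 4 members lay lower without overlap (MYC, MAX, MXD1 and MXD3), where 28.7% of all genes did, and 3 lay higher without overlap (MYCN, MXD4 and MGA), where 29.6% did. An unadjusted edgeR p under 0.05 was found for 6 of 10 members, beside 27.6% of all genes.

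3 further genes belong to the network but not to the 10. MLXIP, which encodes MondoA, had 138 and 109 CPM with sh-NC and 177 and 171 CPM with sh-IRF2BP2 (log2 fold change 0.50, SE 0.141, edgeR adjusted p = 0.0619). MYCL, the third MYC gene, had 7.88 and 7.61 against 7.14 and 6.65 CPM (-0.17, edgeR adjusted p = 0.660). MLXIPL had 0 counts in all 4 libraries.

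Per kilobase of merged exon, the control libraries ranked MYC first (40.4 CPM per kb), then MLX (24.6), MAX (18.5), MXD4 (7.29), MXI1 (6.71), MXD3 (6.42), MYCN (5.32), MGA (5.17), MNT (3.68) and MXD1 (2.33). The libraries of neighbours overlapped from MXD4 down to MNT, so that the order of these neighbours is not resolved. MXD4 and MYCN each lay above MNT without overlap per kb of merged exon. For MYCN this order depends on the length used. In CPM without division by length, MNT lay above MYCN with sh-NC (34.3 and 29.7 against 14.9 and 14.5). The merged exons of MNT span 8701 bases, but its longest transcript 4925. After knockdown MYC was at 24.2 CPM per kb and overlapped MLX at 22.7, whereas MXD4 at 11.5 stood clear of the next member, MYCN at 8.06.

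The balance between MYC and the MXD repressors was taken as the level of MYC over the sum of MXD1, MXI1, MXD3, MXD4 and MNT, all in CPM per kb. MYC exceeded this sum 1.95 and 1.19 times with sh-NC, and was at 1.147 and 0.736 times with sh-IRF2BP2. On the log2 scale the mean moved from 0.61 ± 0.50 to -0.12 ± 0.45 (SD, n = 2 each), a difference of -0.73. The groups did not overlap, but the exact two-sided permutation test gave p = 0.333, the smallest that 6 regroupings of 4 libraries allow. The difference was -0.37 without sh-NC replicate 1, -1.09 without sh-NC replicate 2, -1.05 without sh-IRF2BP2 replicate 1 and -0.41 without sh-IRF2BP2 replicate 2. The repressor sum alone was 23.5 and 29.4 CPM per kb with sh-NC and 24.0 and 28.4 CPM per kb with sh-IRF2BP2, so the groups overlapped there and the difference in the ratio lay in MYC. Within the sum the make-up shifted, with MXD4 at 28.1% and 27.1% of it with sh-NC and at 44.5% and 43.2% with sh-IRF2BP2. MYCN is not part of the ratio. In sh-NC replicate 2, MYC and MYCN together were at 40.2 CPM per kb, beside 29.4 for the repressors. In sh-IRF2BP2 replicate 1 these levels were 36.3 and 24.0, so with MYCN added to MYC the groups would overlap.
Over all 8 partners of MAX, MYC made up 56.3% and 47.7% of the summed level with sh-NC and 40.2% and 32.7% with sh-IRF2BP2. MAX itself was at 0.228 to 0.258 of that sum in the 4 libraries.

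**Figure D2:**
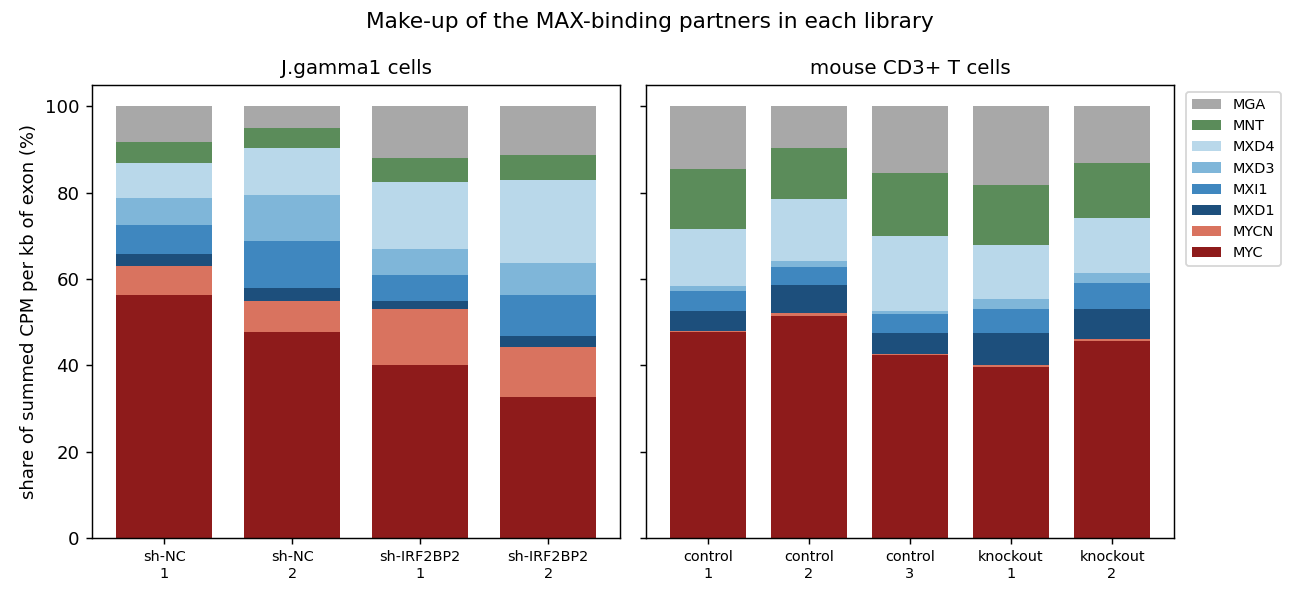
Share of each of the 8 MAX partners in their summed level (CPM per kb of exon, %) in every library, J.gamma1 cells left and mouse CD3+ T cells right. MYC (dark red, bottom) falls from 56.3% and 47.7% with sh-NC to 40.2% and 32.7% with sh-IRF2BP2, while in mouse cells control and knockout shares of Myc overlap and Mycn is a thin band.

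Beyond the network itself, genes that MYC is known to induce were called lower more than higher after knockdown. Of 40 such genes, all tested, 5 were called lower and 0 higher, where 5.01% and 5.46% of all genes were. In this list 31 had a negative log2 fold change, and the median was -0.20 beside 0.0067 for all genes. In what follows, means are given with the SD over the libraries of a group. TERT, the catalytic subunit of telomerase, fell from 16.8 ± 1.31 to 6.72 ± 0.231 CPM (log2 fold change -1.32, edgeR adjusted p = 0.00577). SHMT2, a mitochondrial enzyme of folate metabolism, fell from 184 ± 0.196 to 128 ± 1.67 CPM (-0.53, edgeR adjusted p = 0.0253). The other genes called were BOP1, DCTPP1 and NOP56, of which BOP1 and NOP56 act in ribosome assembly.

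Of the genes that MYC is known to repress, 1 was called higher and 1 lower of 6 tested, beside 5.46% and 5.01% of all genes. A negative log2 fold change was found for 5 of the 6, and the median was -0.49. CDKN1B, the cell cycle inhibitor p27, rose from 141 ± 19.8 to 282 ± 43.9 CPM (log2 fold change 1.00, edgeR adjusted p = 0.00887). NDRG1, a gene of stress and hypoxia responses, fell from 65.3 ± 18.6 to 26.8 ± 10.7 CPM (-1.29, edgeR adjusted p = 0.0286). CDKN2B had 0 counts in all libraries.

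Of the cofactors of both arms of the network, single genes were called, beside 5.01% lower and 5.46% higher among all genes. Of 15 genes of the SIN3-HDAC complex, 1 was called lower and 1 higher, with a median of -0.09. RBBP4, a histone-binding subunit that also serves other chromatin complexes, fell from 707 ± 4.57 to 315 ± 9.43 CPM (log2 fold change -1.17, edgeR adjusted p = 0.00221), and ARID4B rose from 98.6 ± 18.4 to 146 ± 4.47 CPM (0.56, edgeR adjusted p = 0.0489). Of 15 MYC coactivators, RUVBL1 (an ATPase of the TIP60 complex) was the gene called, lower at 60.6 ± 7.87 against 86.9 ± 6.39 CPM (-0.52, edgeR adjusted p = 0.0462), and the median was 0.02.

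Of the partners of MGA in PRC1.6, 2 were called, both lower. L3MBTL2, a histone-binding subunit, fell from 60.6 ± 1.80 to 26.8 ± 0.644 CPM (log2 fold change -1.18, edgeR adjusted p = 0.00208) and TFDP1, the dimer partner of E2F proteins, from 262 ± 11 to 153 ± 11.8 CPM (-0.78, edgeR adjusted p = 0.00863). In all 12 genes were tested, 0 were called higher, and the median was -0.17. Of all genes, 5.01% were called lower and 5.46% higher. MGA itself was not called, as given above.

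Of 15 genes that control the stability of the MYC protein, 2 were called lower and 2 higher, where 5.01% and 5.46% of all genes were. The median of these 15 was -0.03. PPP2R5A, a phosphatase subunit that favours MYC breakdown, fell from 76.6 ± 9.31 to 44.1 ± 1.59 CPM (-0.80, edgeR adjusted p = 0.0101), and USP37, a deubiquitinase that stabilizes MYC, rose from 72.3 ± 9.89 to 116 ± 8.21 CPM (0.68, edgeR adjusted p = 0.0198). GSK3B, a kinase that marks MYC for breakdown, was called lower, and BTRC, a ubiquitin ligase subunit, higher. RNA-seq does not measure the MYC protein, which the paper reported as lower by western blot after IRF2BP2 knockdown.

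Of the targets of MondoA, ARRDC4 had 12.04 ± 0.990 CPM with sh-NC and 13.1 ± 1.32 CPM with sh-IRF2BP2 (log2 fold change 0.12, edgeR adjusted p = 0.727), and TXNIP, the other target, had at most 2 counts in any J.gamma1 library. Among 8 proliferation markers, CDK1 was the gene called, lower at 166 ± 0.340 against 336 ± 21.7 CPM (-1.02, edgeR adjusted p = 0.00301), and the median was -0.17. Of the 10 T cell markers, CD3D was called, lower (-0.79, edgeR adjusted p = 0.00859), where 5.01% of all genes were called lower.

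**Figure D3:**
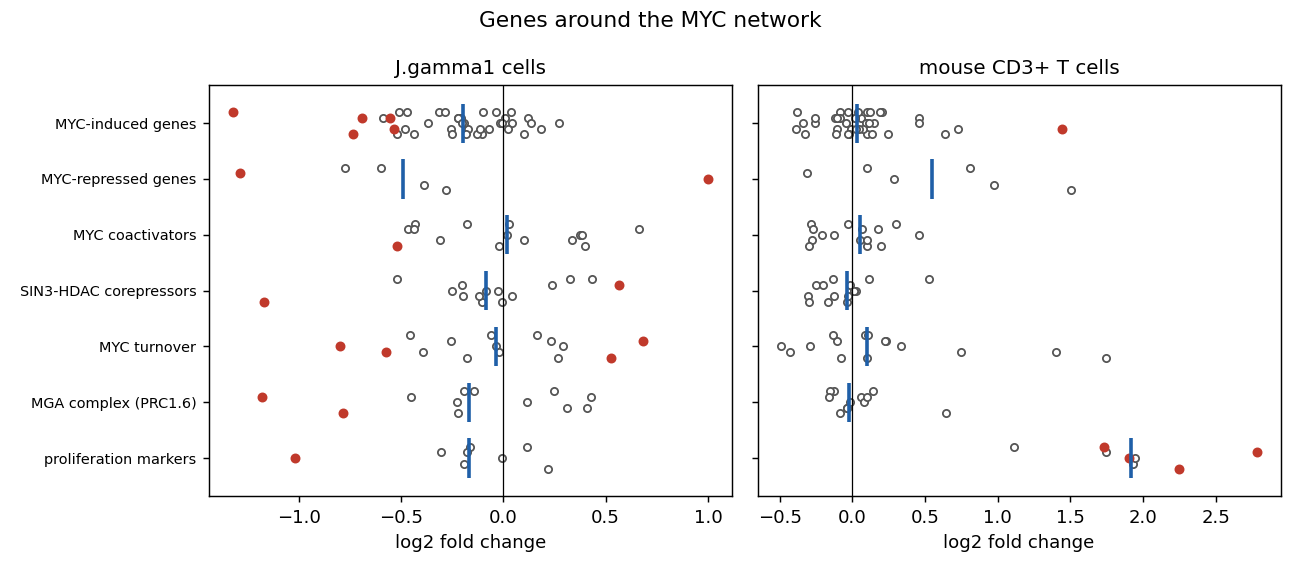
log2 fold change of each tested gene in 7 lists around the network, J.gamma1 cells left (sh-IRF2BP2 minus sh-NC) and mouse CD3+ T cells right (knockout minus control). Filled red points are called genes, open points are not, and blue lines are list medians, which are -0.20 for MYC-induced genes in J.gamma1 cells and 1.92 for proliferation markers in mouse cells.

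In splenic CD3+ T cells of mice, 0 of 10 members were called when an adjusted p under 0.05 was asked for together with a log2 difference of 1 or more, as the study drew it for mouse cells, where 0.111% of 15350 genes were called lower and 2.47% higher. DESeq2 called 0 as well, and without a threshold on the fold edgeR also called 0. An unadjusted edgeR p under 0.05 was found for 3 members (Mxd3, Mxi1 and Mlx), beside 16.2% of all genes. The members' median log2 fold change was -0.03, and that of all genes -0.02. In simulated counts of this design, edgeR recovered 23 of 100 genes changed by 1 on the log2 scale and 69 of 100 genes changed by 2. Recovery also asked for an estimate of at least 1, so for genes changed by 1 the threshold itself limits the share.

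Myc had 3998, 4869 and 1627 counts in the controls and 3632 and 4259 in the knockout, or 108, 135 and 102 against 94.8 and 120 CPM. The groups overlapped, and the log2 fold change was -0.10 (SE 0.176, edgeR adjusted p = 0.850). Mycn was near the lower limit of the data, with 22, 87 and 10 counts in the controls and 41 and 36 in the knockout. Its log2 fold change of -0.24 (SE 0.705) became 0.79 without control replicate 2. Max had 133, 171 and 150 CPM in the controls and 121 and 120 CPM in the knockout, lower without overlap (-0.33, SE 0.145, edgeR adjusted p = 0.330).

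Of the repressive partners, Mxd1, Mxi1 and Mxd3 lay higher in both knockout libraries than in all controls. Mxd1 had 27.2, 44.5 and 31.2 CPM in the controls and 47.0 and 47.6 CPM in the knockout (log2 fold change 0.46, SE 0.219, edgeR adjusted p = 0.369). Without control replicate 2, the control nearest to the knockout, the Mxd1 difference was 0.72 (edgeR adjusted p = 0.0404), still under the fold threshold. Mxi1 had 25.6, 26.8 and 26.6 against 33.1 and 39.9 CPM (0.47, SE 0.146, edgeR adjusted p = 0.179). Mxd3 had 89, 127 and 21 counts in the controls and 189 and 189 counts in the knockout, a log2 fold change of 1.07 (SE 0.427, edgeR adjusted p = 0.283) at levels of 1.31 to 5.32 CPM.

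Mxd4, the member called in J.gamma1 cells, had 93.1, 116 and 132 CPM in the controls and 93.7 and 104 CPM in the knockout, and the groups overlapped (log2 fold change -0.20, SE 0.171, edgeR adjusted p = 0.646). Mnt had 53.8, 53.2 and 59.8 against 56.4 and 57.6 CPM (0.04, SE 0.122, edgeR adjusted p = 0.928). Mga had 183, 143 and 209 against 248 and 193 CPM (0.30, SE 0.198, edgeR adjusted p = 0.528). These 3 genes overlapped between the groups, and with each library left out Mxd4 ranged from -0.32 (without control replicate 1) to -0.09 (without control replicate 3) and Mga from 0.09 (without knockout replicate 1) to 0.45 (without knockout replicate 2). Mlx had 55.0, 65.4 and 60.9 CPM in the controls and 46.7 and 45.2 CPM in the knockout, lower without overlap (-0.40, SE 0.131, edgeR adjusted p = 0.212). In all, 2 members lay lower without overlap, where 17.8% of all genes did, and 3 higher, where 18.2% did.

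**Figure D4:**
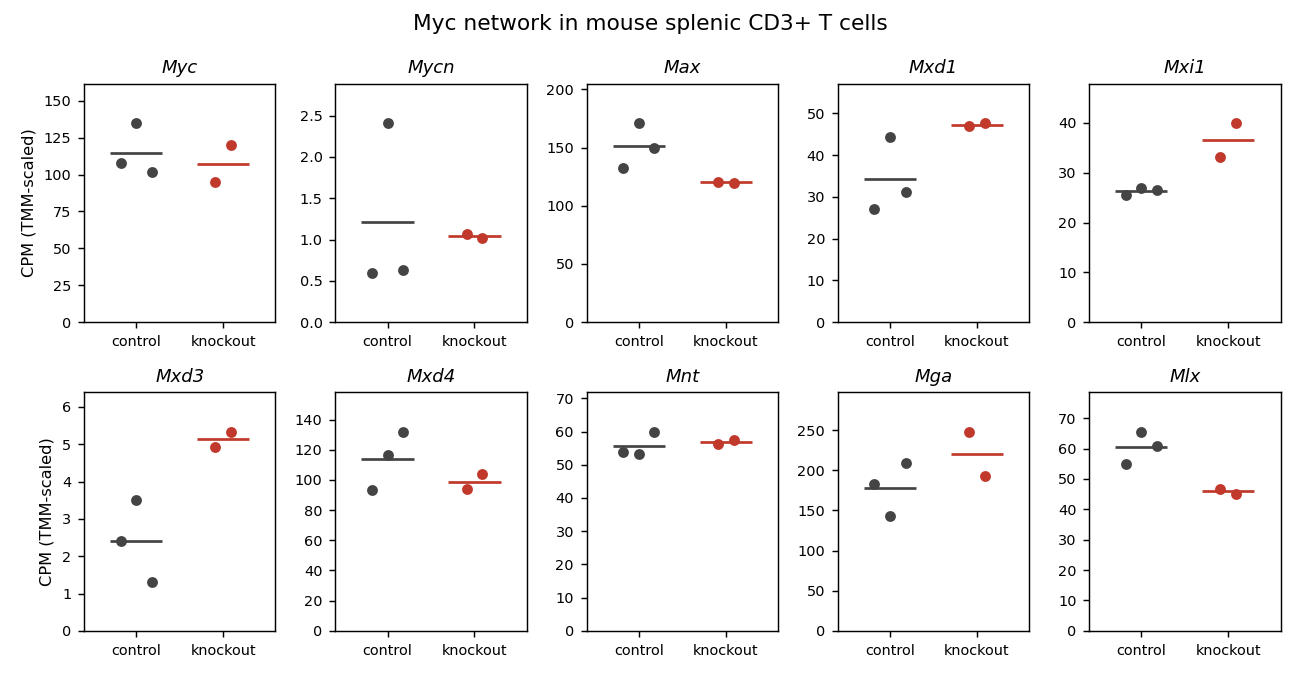
Level of each of the 10 members in mouse splenic CD3+ T cells, in CPM on a linear axis from 0 that differs between panels. Points are libraries (3 control, 2 knockout), horizontal lines the group means; the knockout lies above all controls for Mxd1, Mxi1 and Mxd3 and below them for Max and Mlx, and no member was called.

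Outside the 10, Mlxip had 151, 153 and 188 CPM in the controls and 220 and 235 CPM in the knockout (log2 fold change 0.47, SE 0.145, edgeR adjusted p = 0.177). Mycl had 86, 109 and 13 counts in the controls and 266 and 181 in the knockout (1.53, SE 0.515, edgeR adjusted p = 0.217). Both lay higher without overlap, and Mlxipl averaged 0.0733 and 0.0261 CPM.

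Per kilobase of exon, Myc (42.3 CPM per kb) and Max (42.0) led in the controls and overlapped each other, followed by Mlx (30.2), Mxd4 (13.4), Mnt (12.02) and Mga (11.6), of which the last 3 overlapped as neighbours. Mxd1 (4.85) and Mxi1 (3.86) overlapped as well, and Mxd3 (1.02) and Mycn (0.367) came last and overlapped each other. By mean, Mycn was the lowest member in the mouse controls. MYCN in J.gamma1 cells was above MNT and MXD1 per kb of merged exon, but not in CPM without division by length. Myc over the repressor sum was 1.27, 1.34 and 1.00 times in the controls and 0.948 and 1.12 times in the knockout, and the groups overlapped. The log2 difference was -0.22 (exact two-sided permutation test, p = 0.400, where 10 regroupings allow no p under 0.200), and it ranged from -0.35 without control replicate 3 to -0.10 without knockout replicate 1. The repressor sum was 31.2, 36.9 and 37.3 CPM per kb in the controls and 36.8 and 39.5 CPM per kb in the knockout. Max over the sum of its 8 partners was 0.444, 0.492 and 0.471 in the controls and 0.380 and 0.344 in the knockout, without overlap, a ratio that was not tested.

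The mouse libraries also differed in the RNA of proliferation markers and of blood cell markers. Of 8 proliferation markers, 4 were called higher and 0 lower, where 2.47% and 0.111% of all genes were. All 8 were positive, and their summed level was 126 to 252 CPM in the controls and 870 to 952 CPM in the knockout. Mki67 rose from 64.1 ± 16.5 to 442 ± 46.6 CPM (log2 fold change 2.78, edgeR adjusted p = 0.00717) and Top2a from 56.8 ± 16.8 to 213 ± 0.0227 CPM (1.91, edgeR adjusted p = 0.0147). Of 40 Myc-induced genes, only Odc1, the rate-limiting enzyme of polyamine synthesis, was called, higher at 219 ± 13.5 against 80.7 ± 14.2 CPM (1.44, edgeR adjusted p = 0.0125). The median of that list was 0.03, and 2.47% of all genes were called higher.

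The lists of Myc coactivators, the SIN3-HDAC complex, Myc turnover (15 genes each) and PRC1.6 (12 genes) had 0 called genes in mouse cells. Their medians were 0.05, -0.04, 0.10 and -0.03. Of all genes, 0.111% were called lower and 2.47% higher, so 0 calls do not set lists of this size apart from all genes. Myc-repressed genes had 0 of 6 called and a median of 0.55, with 5 of 6 positive, and the MondoA targets Txnip and Arrdc4 were at -0.30 and 0.17 (edgeR adjusted p = 0.668 and 0.856).

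Of 11 erythroid markers tested, 6 were called higher and 0 lower, where 2.47% and 0.111% of all genes were. All 11 were positive, and their sum was 675 to 2332 CPM in the controls and 4649 to 6503 CPM in the knockout. Tfrc, which dividing cells of other kinds also express, rose from 77.1 ± 5.97 to 300 ± 32.4 CPM (log2 fold change 1.96, edgeR adjusted p = 0.00451). All 10 T cell markers were negative with 0 called, and their sum was 4439 to 5014 CPM in the controls and 3372 to 3614 CPM in the knockout. Plasma cell markers had 1 of 7 called (Prdm1, higher) and sums of 432 to 1178 against 1166 to 1536 CPM. B cell, myeloid and NK cell markers had 0 called, with sums of 36.5 to 262 against 40.2 to 111, 36.9 to 367 against 71.0 to 119, and 251.1 to 292 against 276 to 410 CPM. Libraries of sorted cells are bulk samples, in which fewer cells of a type and less RNA per cell cannot be told apart. The part of these marker differences in the values of Max, Mxd1, Mxi1, Mxd3 and Mlx was not tested.

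**Figure D5:**
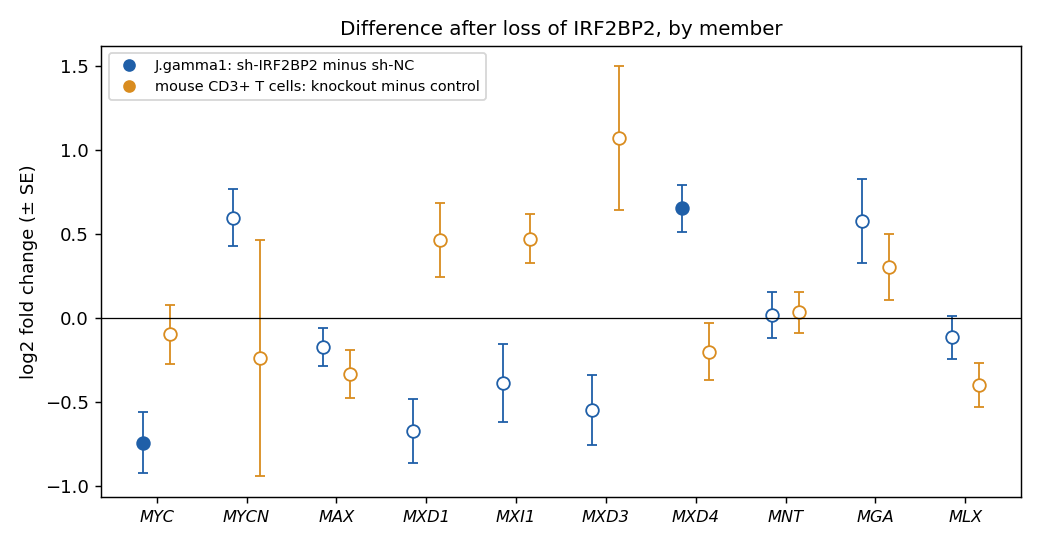
log2 fold change with its SE for each member, in J.gamma1 cells (blue) and mouse CD3+ T cells (orange). Filled points are called, which holds for MYC (-0.74) and MXD4 (0.65) in J.gamma1 cells, and error bars show the SE from edgeR's quasi-likelihood fit.

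Set side by side, MAX (-0.17 and -0.33), MLX (-0.12 and -0.40) and MGA (0.58 and 0.30) had the same sign in J.gamma1 and mouse cells. MYC was at -0.74 and -0.10, with 1 of the pair called, and the difference between the cell types was not tested. The signs were opposite for MYCN (0.60 and -0.24), MXD1 (-0.67 and 0.46), MXI1 (-0.39 and 0.47), MXD3 (-0.55 and 1.07) and MXD4 (0.65 and -0.20). MNT was at 0.02 and 0.04. Some signs changed when a library was left out, namely MNT and MLX in J.gamma1 cells and Myc, Mycn and Mnt in mouse cells. The 2 tables differ in species, cell type and the way IRF2BP2 was lost, which cannot be told apart here.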

How the data were processed

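The authors aligned the reads with HISAT2 2.2.0 to hg38 or mm10, per the labels, and deposited counts, whole numbers for each Ensembl gene, from StringTie, without normalization; whether strand was used is not given in the sources used here. The 10 members and the lists were chosen with earlier results of these data known, and every member is named, with the 2 genes of lowest p among those called from each list; some items that met this rule or the promoter search are not reported here. Rows with identifiers in GENCODE 44 (56105 of 64252) or M21 (42462 of 43432) were kept.

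Each table went through edgeR 4.0.16 in R 4.3.3 (filterByExpr, TMM scaling, glmQLFit and glmQLFTest), adjusted by Benjamini-Hochberg over all genes. SE is the log2 fold change divided by the square root of F. The biological coefficient of variation was 0.165 (J.gamma1) and 0.271 (mouse). CPM per kb used merged exons. Replicates differed by more than sampling noise (chi-square per gene at least 19.6). In simulated counts with 200 changed genes edgeR recovered 134 for J.gamma1 cells (18 false calls) and 92 for mouse cells (8 false calls). Calls there used the fold thresholds of 0.5 for J.gamma1 cells and 1 for mouse cells, so these results are not directly comparable. DESeq2 1.42.0, other scalings and filters, all rows, a replicate block and each library left out were alternatives.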

Additional observations from a re-analysis of the deposited data

Results flagged for a closer look

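MXD1 and MXD3, both repressive partners of MAX, lay lower in every sh-IRF2BP2 library of J.gamma1 cells than in every sh-NC library, and higher in every knockout mouse library than in every control. The log2 fold changes were -0.67 in J.gamma1 cells and 0.46 in mouse T cells for MXD1, and -0.55 and 1.07 for MXD3. None of these values passed the test by edgeR, and the difference between the cell types was not tested. MXD1 and MXD3 were picked from the 10 members by this pattern. Of all genes, 28.7% lay lower and 29.6% higher without overlap in J.gamma1 cells, and 17.8% and 18.2% in mouse cells. The share of all genes with opposite directions in the tables was not counted. Library depth differed in the mouse, where control replicate 3 was the shallowest and held 21 counts of Mxd3. The mouse groups also differed in RNA of erythroid and proliferation markers, whose part in these values was not tested. Human MXD3 shares 24.2% of its exon bases with PRELID1 and 19.5% with RAB24.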

How the results depend on the processing

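Of all 15819 genes tested in J.gamma1 cells, 793 were called lower and 864 higher. These totals moved with the settings, to 960 and 1022 with DESeq2 and to 1174 and 1293 with the replicate number as a block. They were 396 and 319 of 27082 genes when those with 1 count in any library were kept. Of the J.gamma1 members, 1 was called lower and 1 higher. With DESeq2 these counts were 2 and 2, with genes of 1 count in any library kept they were 0 and 0, and with each library left out they ranged from 0 to 3 in either direction. With the replicate number as a block they were 3 and 3; the labels do not say that the number marks a pairing, same-numbered libraries had deviations that correlated at 0.225, and with 2 pairs this gives no basis for pairing. In mouse cells the block changed the call of no member, whereas over all genes the calls were 35 lower and 407 higher with it and 17 and 379 without. Same-numbered mouse libraries correlated at 0.151 and -0.161. A replicate left alone in its group was assumed to vary like the other group.

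The sign of MNT was not stable: it was -0.034 with upper-quartile scaling, -0.012 with genes of 1 count in any library, and -0.083 to 0.12 with each library left out. The same ranges were -0.28 to 0.0084 for MLX, -0.30 to 0.050 for Myc, -0.58 to 0.79 for Mycn and -0.0018 to 0.085 for Mnt in mouse. The ratio of MYC to its repressors kept its direction in both tables in all alternatives, none of which added MYCN to MYC. With each library left out its log2 difference ranged from -1.09 to -0.37 in J.gamma1 cells and from -0.35 to -0.10 in mouse cells. Direction was kept as well for the fold changes of the remaining members. With 2 libraries per group, the J.gamma1 fit had 2 residual degrees of freedom, and for Mycn and Mxd3 in mouse the low counts limit the precision.

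Over all genes, the counts of calls in J.gamma1 cells were 793 lower and 864 higher, 946 and 722 with upper-quartile scaling, and 396 and 319 with genes of 1 count in any library kept. Without sh-IRF2BP2 replicate 1 they were 419 and 418, and without sh-NC replicate 1 they were 1143 and 1608. In mouse cells they were 17 and 379, and 66 and 735 with DESeq2. They were 1 and 6 without control replicate 1, 1 and 9 without knockout replicate 2, 3 and 47 without knockout replicate 1, and 35 and 532 without control replicate 2.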
